A study of Mus musculus with 6 samples.

Results

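The 10 genes described here encode the kinase mTOR, its partners and the proteins that tell it whether amino acids are present: *Mtor*, *Rptor*, *Rictor*, *Deptor*, *Sesn1*, *Sesn2*, *Castor1*, *Rragd*, *Eif4ebp1* and *Klf15*. They were taken by name from a written list, through the mouse gene symbols of GENCODE M21, and not by any measured value. All 10 were found among the 54232 genes counted in each library, and all 10 were among the 14133 genes with enough counts to be tested. RNA from heart ventricle was sequenced from 6 mice on a western diet (WD), 3 given vehicle (WD + Vehicle) and 3 given Tributyrin (WD + Tributyrin), a fat from which the short chain fatty acid butyrate is released. All 6 mice were wild-type C57BL/6J and had been on WD for 15 weeks before treatment, so that diet, strain and genotype were shared by both groups. Tributyrin was needle-fed at 5 g/kg body weight in cycles of 2 days on and 2 days off for 3 weeks, and the labels give the control treatment as PBS. The study used male and female mice, and the labels give neither the sex nor the age of these 6.

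mTOR sits in a pair of complexes. With raptor (*Rptor*) it forms mTORC1, which drives protein synthesis and growth when amino acids are plentiful, and with rictor (*Rictor*) it forms mTORC2. Leucine is read by the Sestrins and arginine by CASTOR1, which hold back the GATOR2 complex when the amino acid is scarce, and the signal reaches mTORC1 through the Rag GTPases on the lysosome. In the heart, mTORC1 activity accompanies growth of cardiomyocytes, and KLF15 is a transcription factor that induces genes of branched-chain amino acid breakdown. Much of this pathway is controlled by phosphorylation and protein binding, which transcript counts do not measure.

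None of the 10 genes passed an FDR of 10% between WD + Tributyrin and WD + Vehicle (edgeR's quasi-likelihood test, Benjamini-Hochberg adjusted p = 0.999 for each), where 0% of all genes tested did. None had an unadjusted p under 0.05 either, against 4.25% of all genes tested. The lowest unadjusted p of the 10 was 0.11 by edgeR, 0.135 by DESeq2 and 0.0785 by limma-voom. With Tributyrin 3 of the 10 were higher and 7 were lower, and their median log2 fold change was -0.03, beside -0.001 over all genes tested, of which 49.6% were higher. The median size of the change, whatever its direction, was 0.06 for the 10 genes and 0.09 for all genes on the log2 scale. For 9 of the 10 the 95% interval of the fold change lay within 1.5-fold in either direction, and *Castor1*, the arginine sensor, was the exception.

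The libraries held between 20369746 and 32734485 counts on genes, and transcripts of the mitochondrial genome took between 23.6% and 28.8% of them. The ventricular markers *Myl2*, *Myl3*, *Myh6*, *Tnni3*, *Tnnt2* and *Actc1* summed to between 1286000 and 1403000 normalized counts in every library, where normalized counts are counts divided by a size factor for the library. Of these 6 markers *Tnni3* and *Tnnt2*, which encode troponins, were higher with Tributyrin and *Actc1*, cardiac actin, lower, each with an unadjusted p under 0.05 by edgeR (log2 fold changes 0.21, 0.23 and -0.21, adjusted p = 0.999 for each). The 5 atrial markers summed to between 1414 and 4786 with vehicle and between 815 and 1687 with Tributyrin. All 5 were lower with Tributyrin, 4 of them with an unadjusted p under 0.05, and none was at 0 in every library. Vehicle mice 1 and 2 carried most of that signal, as *Myl7*, an atrial myosin light chain, was at 1746, 1483 and 110.6 in the vehicle mice and at 193.6, 479.7 and 197.3 in the Tributyrin mice. Of the 5 fibroblast markers 4 were lower with Tributyrin and 2 of these had an unadjusted p under 0.05, with sums between 19390 and 20860 with vehicle and between 17430 and 21010 with Tributyrin. All 4 smooth muscle and pericyte markers were higher with Tributyrin, of which *Myh11*, smooth muscle myosin, had groups apart and a log2 fold change of 0.59 ± 0.17 (SE, edgeR's unadjusted p = 0.00535, adjusted p = 0.999), with sums between 16000 and 17740 with vehicle and between 17030 and 20640 with Tributyrin. No endothelial, macrophage or erythroid marker had an unadjusted p under 0.05, and their sums overlapped between the groups. Adipocyte markers summed to at most 74.9, and the fast skeletal muscle myosins *Myh1*, *Myh2* and *Myh4* had too few counts to be tested. Also on the skeletal muscle list, *Acta1* had 9796, 30670 and 9401 normalized counts with vehicle and 2476, 6672 and 12520 with Tributyrin. Its log2 fold change was -1.20 ± 0.55 (SE, edgeR's unadjusted p = 0.0525, adjusted p = 0.999), and that of *Ckm* was 0.003. The part of these differences in cell makeup in the values that follow was not tested, and in whole tissue fewer cells of a type and less RNA per cell cannot be told apart.

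The start site regions of 4 of the genes are shown. *Sesn1*, *Castor1* and *Klf15* were picked after their values were seen, for a shared order over the 3 Tributyrin mice described further on. They did not share an order over the vehicle mice. *Mtor* was picked because it gives its name to the pathway. Each region is the RefSeq window from 250 bases before to 50 bases after a start site on GRCm38.p6, on the plus strand and read 5′ to 3′. Such windows were matched for 8 of the 10 genes, with 9 windows in all since *Sesn1* has a pair of them. Capitals mark CACGTG in *Klf15*, CCAAT or its reverse ATTGG in *Mtor* and *Sesn1*, and the forkhead motif GTAAACA, in its reverse form, in *Sesn1*. *Castor1* held none of these motifs.
Klf15, chr6:90462326-90462625: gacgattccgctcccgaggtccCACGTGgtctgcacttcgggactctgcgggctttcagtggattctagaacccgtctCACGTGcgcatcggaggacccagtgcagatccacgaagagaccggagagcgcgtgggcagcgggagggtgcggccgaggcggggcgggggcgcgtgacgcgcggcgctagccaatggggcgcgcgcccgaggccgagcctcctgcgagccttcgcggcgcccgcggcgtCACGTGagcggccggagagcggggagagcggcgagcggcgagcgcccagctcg
Sesn1, chr10:41810324-41810623: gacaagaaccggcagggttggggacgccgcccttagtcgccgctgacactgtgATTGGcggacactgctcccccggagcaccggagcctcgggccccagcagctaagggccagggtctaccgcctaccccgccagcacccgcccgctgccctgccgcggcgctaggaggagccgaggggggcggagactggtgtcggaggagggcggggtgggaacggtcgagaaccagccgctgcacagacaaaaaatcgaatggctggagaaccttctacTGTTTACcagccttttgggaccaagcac
Castor1, chr11:4217975-4218274: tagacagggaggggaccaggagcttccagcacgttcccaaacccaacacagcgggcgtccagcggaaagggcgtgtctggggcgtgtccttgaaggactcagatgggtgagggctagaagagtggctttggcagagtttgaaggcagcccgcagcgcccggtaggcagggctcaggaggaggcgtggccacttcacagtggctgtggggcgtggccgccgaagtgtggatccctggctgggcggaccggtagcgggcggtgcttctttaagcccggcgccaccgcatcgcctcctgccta
Mtor, chr4:148448332-148448631: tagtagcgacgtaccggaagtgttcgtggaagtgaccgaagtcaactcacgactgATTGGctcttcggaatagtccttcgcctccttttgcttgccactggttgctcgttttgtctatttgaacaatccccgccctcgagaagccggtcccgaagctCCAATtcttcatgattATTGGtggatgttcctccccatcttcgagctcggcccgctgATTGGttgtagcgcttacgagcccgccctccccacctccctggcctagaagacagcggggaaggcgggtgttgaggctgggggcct
The *Klf15* window held 3 copies of CACGTG, the E-box read by clock factors and by TFEB and MYC proteins, starting 228, 172 and 3 bases before the start site. No window of the other 7 genes held one. Over all 32851 RefSeq windows of this length 7.15% held at least 1 copy and 0.0883%, or 29 windows, held at least 3. The *Mtor* window held 4 copies of CCAAT, counted on both strands, against 37.4% of all windows with at least 1 and 1.06% with at least 4. *Sesn2* held 2 copies and *Rictor*, *Klf15* and each *Sesn1* window held 1. The forkhead motif was in 1 *Sesn1* window and in 3.65% of all windows. The amino acid response motif TGATGNAA, where ATF4 binds, was in none of the 9 windows and in 3.97% of all windows. The windows also differed in base composition, with 47 CpG dinucleotides in those of *Klf15* and *Rictor*, 6 in that of *Rragd* and a median of 7 over all windows. CACGTG itself holds a CpG, and the shares over all windows given above were not matched for base composition. A match of letters is a description of the sequence and does not show that a factor was bound in these hearts.

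Per kilobase of exon, *Sesn1* was the most abundant of the 10 transcripts, with 1000 ± 123 normalized counts per kilobase in the vehicle mice (SD, n = 3), and *Rictor* the least, with 26.2 ± 3.3. Between them the vehicle means were 830.1 ± 56.9 for *Klf15*, 681 ± 37.4 for *Eif4ebp1*, 551.9 ± 38.4 for *Rragd*, 189.7 ± 10.2 for *Mtor*, 103.2 ± 7.95 for *Rptor*, 94.95 ± 15.9 for *Castor1*, 66.0 ± 2.74 for *Deptor* and 33.04 ± 0.593 for *Sesn2*. Over the 6 mice the ranges of neighbours in this order were apart at 3 places, between *Rragd* and *Mtor*, between *Mtor* and *Rptor*, and between *Deptor* and *Sesn2*. At the other places the ranges overlapped, so that *Sesn1*, *Klf15*, *Eif4ebp1* and *Rragd*, the 4 most abundant, were not separated from their neighbours within this set.

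**Figure D1:**
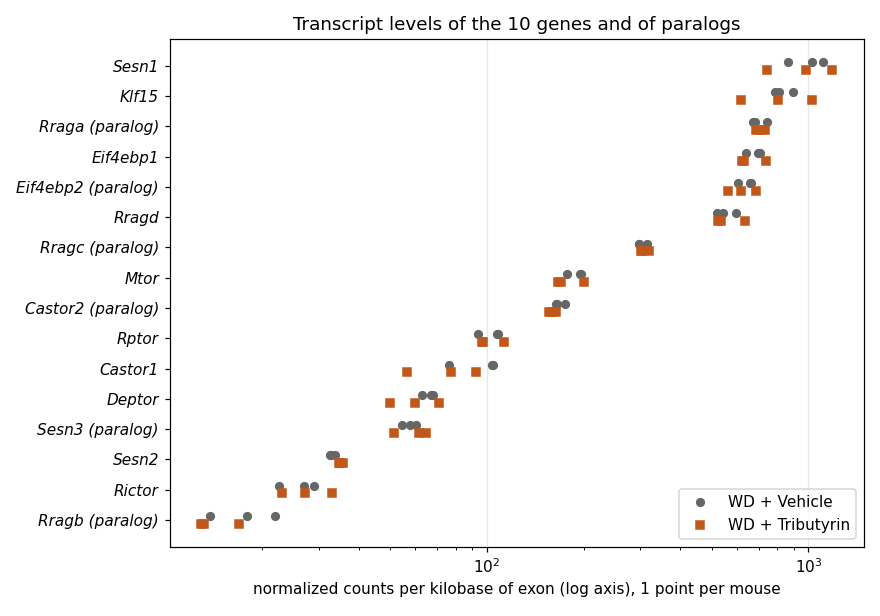
Normalized counts per kilobase of exon (log axis) of the 10 genes and of 6 paralogs, with 1 point per mouse, circles for WD + Vehicle and squares for WD + Tributyrin. *Sesn1* at the top has a vehicle mean of 1000 and *Rictor*, the lowest of the 10, one of 26.2, and the points of both groups lie close together on each line.

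Where a gene has close relatives, its level was set beside theirs. *Sesn1* was at 30.1 times the level of *Sesn2* per kilobase with vehicle (geometric mean), and *Sesn3* stood between them at 57.5 normalized counts per kilobase. *Castor2*, at 168, was above *Castor1*. Among the Rag GTPases, *Rraga* was at 699 and *Rragc*, which like RagD pairs with RagA or RagB, at 303, while *Rragb* was at 17.9. *Eif4ebp2* was at 641 beside 681 for *Eif4ebp1*, and *Eif4ebp3* had too few counts to be tested.

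The kinase and the subunits that bind it were first compared. *Mtor* (chr4:148448611-148557683, plus strand) had 1972, 1982 and 1799 normalized counts in vehicle mice 1, 2 and 3 and 1683, 2029 and 1715 in Tributyrin mice 1, 2 and 3. Tributyrin mice 1 and 3 lay below all vehicle mice and mouse 2 above them, so the groups overlapped. The log2 fold change was -0.08 ± 0.09 (SE), with a 95% interval of the fold from 0.824 to 1.08 (edgeR's unadjusted p = 0.369, two-sided exact permutation p = 0.4). An exact test of 3 mice against 3 cannot give a p under 0.1.

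*Rptor* (chr11:119602905-119899576, plus strand), the subunit that brings substrates to mTORC1, had 1457, 1448 and 1267 normalized counts with vehicle and 1306, 1530 and 1309 with Tributyrin. The groups overlapped, with vehicle mouse 3 lowest and Tributyrin mouse 2 highest. Its log2 fold change was -0.01 ± 0.09 (SE) and its fold interval 0.865 to 1.14 (edgeR unadjusted p = 0.923, exact permutation p = 1).

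*Rictor* (chr15:6708379-6800401, plus strand), which defines mTORC2, had 456.3, 381.5 and 490.7 normalized counts with vehicle and 460.1, 559.2 and 390.0 with Tributyrin. Tributyrin mouse 2 was again highest, and vehicle mouse 2 and Tributyrin mouse 3 were low. The log2 fold change of 0.09 ± 0.14 (SE) had a fold interval of 0.856 to 1.33 (unadjusted p = 0.527, exact permutation p = 0.6).

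*Deptor* (chr15:55112317-55259271, plus strand), an inhibitor that binds mTOR in both complexes, had 604.9, 558.3 and 593.9 normalized counts with vehicle and 529.3, 629.6 and 442.8 with Tributyrin. The vehicle mice differed by 1.08-fold at most and the Tributyrin mice by 1.42-fold, and the vehicle values lay inside the Tributyrin range. This gave a log2 fold change of -0.13 ± 0.12 (SE), with a fold interval of 0.758 to 1.1 (unadjusted p = 0.32, exact permutation p = 0.5). For *Mtor* and *Deptor* the size of the difference rested on single mice. Without Tributyrin mouse 2 the log2 fold changes were -0.18 and -0.27, and both genes were lower in every Tributyrin mouse left. The unadjusted p values by edgeR were then 0.0377 and 0.0338 and the adjusted values 0.499 and 0.487. In that setting 1360 of all 14225 genes tested had an unadjusted p under 0.05. The log2 fold changes of *Mtor* and *Deptor* were -0.029 and -0.115 without Tributyrin mouse 1. They were -0.042 and -0.008 without Tributyrin mouse 3.

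The balance between these subunits was also read within each mouse, where it does not depend on how libraries are scaled. The log2 ratio of *Rptor* to *Rictor* per kilobase, the level of the mTORC1 subunit against that of the mTORC2 subunit, was 1.99 ± 0.278 with vehicle and 1.9 ± 0.157 with Tributyrin (SD, n = 3, difference -0.09, two-sided exact permutation p = 0.7). The log2 ratio of *Deptor* to *Mtor* was -1.52 ± 0.115 and -1.58 ± 0.159 (difference -0.06, exact permutation p = 0.7). Both differences were smaller than the spread between mice, and the sign of each changed when 1 mouse was left out.

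Of 7 further subunits and assembly factors of the complexes, 3 were higher and 4 lower with Tributyrin, and none had an unadjusted p under 0.05. *Mlst8*, a subunit of both complexes, had 231.8, 241.9 and 232.3 normalized counts with vehicle and 216.0, 208.3 and 203.0 with Tributyrin. It was lower in every Tributyrin mouse, with a log2 fold change of -0.17 ± 0.10 (SE, edgeR's unadjusted p = 0.134, adjusted p = 0.999). *Prr5*, an mTORC2 subunit, was at -0.31 ± 0.18 (SE, unadjusted p = 0.117, adjusted p = 0.999), with overlapping groups.

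**Figure D2:**
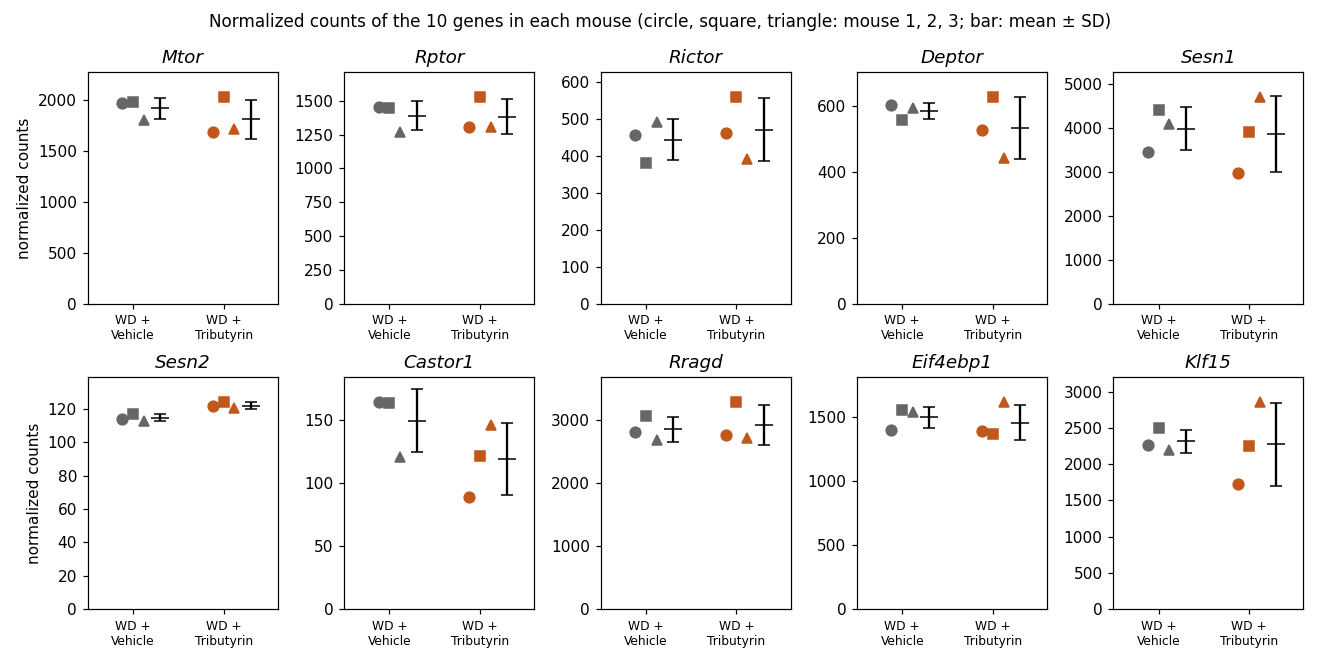
Normalized counts of each of the 10 genes (vertical axes, from 0) in the 3 WD + Vehicle and the 3 WD + Tributyrin mice, with circle, square and triangle for mice 1, 2 and 3 and the bar for mean ± SD. With this scaling *Sesn2* is the only gene whose groups do not overlap, and the 3 Tributyrin mice have their widest range as a ratio for *Klf15*, 1.66-fold from 1720 to 2859.

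The amino acid sensors came next. *Sesn1* (chr10:41809935-41908424, plus strand), a leucine sensor and a target of FOXO and p53, had 3449, 4412 and 4087 normalized counts with vehicle and 2969, 3912 and 4712 with Tributyrin. Tributyrin mouse 1 was the lowest and mouse 3 the highest of all 6, so that the Tributyrin group enclosed the vehicle group. The log2 fold change was -0.04 ± 0.15 (SE), with a fold interval of 0.772 to 1.22 (unadjusted p = 0.774, exact permutation p = 0.9).

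*Sesn2* (chr4:132492032-132510501, minus strand), a leucine sensor that is also induced by ATF4 in stressed cells, had 114.3, 117.1 and 113.1 normalized counts with vehicle and 121.6, 124.3 and 120.4 with Tributyrin. All 3 Tributyrin mice were above all 3 vehicle mice, which made *Sesn2* the only 1 of the 10 whose groups were apart, where 8.92% of all genes tested had groups apart in either direction. The group means differed by 6.33%, and counting error alone gave a relative SD of up to 10.5% in a library, more than the 1.8% and 1.61% by which the mice of a group differed. *Sesn2* thus had a log2 fold change of 0.09 ± 0.13 (SE), with a fold interval of 0.867 to 1.3 (unadjusted p = 0.519, exact permutation p = 0.1, the smallest it can give). When libraries were scaled by their total counts alone, the groups of *Sesn2* overlapped.

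*Castor1* (chr11:4218225-4222409, plus strand), which senses arginine and not leucine, showed the largest difference of the 10. It had 164.2, 163.6 and 120.5 normalized counts with vehicle and 88.8, 121.5 and 145.7 with Tributyrin. Vehicle mice 1 and 2 were highest and Tributyrin mouse 1 lowest, while vehicle mouse 3 lay within the Tributyrin range. The group mean was 149.5 ± 25.1 with vehicle and 118.7 ± 28.5 with Tributyrin (SD, n = 3), lower by a log2 fold change of -0.35 ± 0.20 (SE) with a fold interval of 0.581 to 1.07 (unadjusted p = 0.11, exact permutation p = 0.3).

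Vehicle mice 1 and 2, high for *Castor1*, were also high for the atrial markers *Myl4*, *Myl7*, *Sln* and *Mybphl*. The atrial marker *Nppa* was highest in vehicle mouse 3, with 554.0, 484.6 and 1046 normalized counts in the vehicle mice. Among the Tributyrin mice *Myl4*, *Myl7* and *Mybphl* were highest in mouse 2, *Sln* in mouse 1 and *Nppa*, like *Castor1*, in mouse 3. The part of the atrial signal in the *Castor1* difference was not tested. The *Castor1* log2 fold change was -0.51 without Tributyrin mouse 3 and -0.47 without vehicle mouse 3, with edgeR's unadjusted p values of 0.0327 and 0.0463 and adjusted values of 0.999 and 1. In these settings 663 of all 14521 and 389 of all 14496 genes tested had an unadjusted p under 0.05. Without the filter on low counts the *Castor1* log2 fold change was -0.34, with an unadjusted p of 0.0427 and an adjusted p of 0.871 by edgeR. Without that filter 1178 of all 25581 genes tested had an unadjusted p under 0.05. *Castor1* was lower with Tributyrin in every setting run, from -0.51 to -0.17.

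Within a mouse, the log2 ratio of *Sesn1* to *Sesn2* per kilobase was 4.91 ± 0.171 with vehicle and 4.76 ± 0.34 with Tributyrin (SD, n = 3, difference -0.15, two-sided exact permutation p = 0.7). These are ratios of 30.1 and 27.1, so *Sesn1* was the main Sestrin transcript in both groups. In each group the ratio varied among mice mostly with *Sesn1*, since *Sesn2* hardly varied.

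GATOR1, GATOR2, KICSTOR and the remaining sensors were represented by 14 genes, of which 9 were higher and 5 lower, with log2 fold changes between -0.15 and 0.11 and none with an unadjusted p under 0.05. *Nprl3*, a GATOR1 subunit, was at -0.15 ± 0.10 (SE, edgeR's unadjusted p = 0.174, adjusted p = 0.999), and *Wdr59*, a GATOR2 subunit, at -0.14 ± 0.13 (unadjusted p = 0.309, adjusted p = 0.999 by edgeR). *Castor2*, which pairs with CASTOR1, had 1243, 1248 and 1322 normalized counts with vehicle and 1182, 1237 and 1206 with Tributyrin. Its groups were apart, by a log2 fold change of only -0.07 ± 0.07 (SE). *Sesn3* was at 0.05 on the same scale, and at -0.02 when libraries were scaled by total counts alone.

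*Rragd* (chr4:32983037-33022180, plus strand) encodes RagD, a GTPase that tethers mTORC1 to the lysosome and is itself a target gene of TFEB and related factors. It had 2808, 3072 and 2684 normalized counts with vehicle and 2763, 3290 and 2716 with Tributyrin. The groups overlapped almost wholly, with mouse 2 highest in each. The log2 fold change was 0.04 ± 0.09 (SE), with a fold interval of 0.89 to 1.18 (unadjusted p = 0.709, exact permutation p = 0.8), and its sign turned to -0.04 when libraries were scaled by total counts alone.

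Of the other 12 Rag, Ragulator and lysosomal genes, 7 were higher and 5 lower, and 1 had an unadjusted p under 0.05. That gene was *Lamtor5*, a Ragulator subunit that anchors the Rag GTPases, with 595.6, 552.9 and 603.8 normalized counts with vehicle and 703.2, 630.5 and 733.0 with Tributyrin. It was higher in every Tributyrin mouse, by a log2 fold change of 0.24 ± 0.09 (SE), and did not pass the adjustment (edgeR's unadjusted p = 0.0212, adjusted p = 0.999). With 1 mouse left out its unadjusted p by edgeR rose to 0.0517 without Tributyrin mouse 1, 0.0618 without Tributyrin mouse 3 and 0.086 without vehicle mouse 2. *Lamtor2*, another Ragulator subunit, was at 0.17 ± 0.09 (SE, unadjusted p = 0.0899, adjusted p = 0.999 by edgeR), with overlapping groups. *Rraga* and *Rragc*, at 0.02 and 0.03, were like *Rragd* on the higher side here and on the lower side under scaling by total counts, and *Rragb* was at -0.33 ± 0.27 (SE).

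Upstream of mTORC1, 7 genes of the TSC complex, Rheb and REDD were measured, of which 4 were higher and 3 lower, none with an unadjusted p under 0.05. The lowest p values were those of *Tbc1d7*, a TSC complex subunit, at -0.14 ± 0.12 (SE, edgeR's unadjusted p = 0.279, adjusted p = 0.999) and *Ddit4l*, a REDD inhibitor of mTORC1, at 0.39 ± 0.40 (SE, unadjusted p = 0.353, adjusted p = 0.999 by edgeR), which was 0.03 without Tributyrin mouse 1 and 0.74 without Tributyrin mouse 3.

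*Eif4ebp1* (chr8:27260329-27276674, plus strand) encodes 4E-BP1, the repressor of cap-dependent translation that mTORC1 phosphorylates and so releases from eIF4E. It had 1401, 1551 and 1534 normalized counts with vehicle and 1386, 1364 and 1616 with Tributyrin. Tributyrin mice 1 and 2 were lowest and Tributyrin mouse 3 highest of the 6. Between the groups the log2 fold change was -0.04 ± 0.085 (SE), with a fold interval of 0.854 to 1.11 (unadjusted p = 0.652, exact permutation p = 0.8).

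Of 13 tested genes of mTORC1 substrates and cap-binding factors 4 were higher and 9 lower, with none at an unadjusted p under 0.05. *Maf1*, a repressor of RNA polymerase III that mTORC1 phosphorylates, was higher in every Tributyrin mouse, with 2151, 2255 and 2250 normalized counts with vehicle and 2374, 2317 and 2595 with Tributyrin. Its log2 fold change was 0.13 ± 0.07 (SE, edgeR's unadjusted p = 0.0946, adjusted p = 0.999). *Rps6kb1*, the S6 kinase, was at -0.14 ± 0.08 (SE, unadjusted p = 0.128, adjusted p = 0.999 by edgeR) with overlapping groups, and *Eif4ebp2* was at -0.04.

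**Figure D3:**
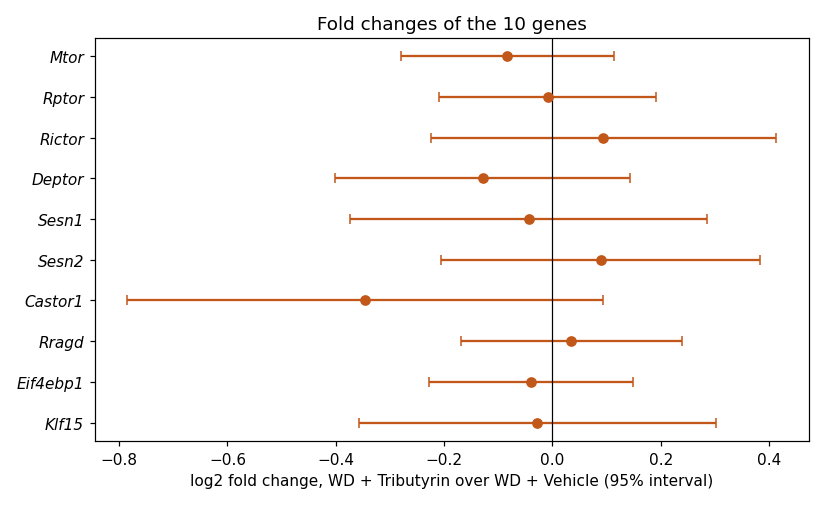
Log2 fold change of WD + Tributyrin over WD + Vehicle (horizontal axis) for each of the 10 genes, with bars for the 95% interval of edgeR's fit over 3 mice against 3. Every interval includes 0, and that of *Castor1* is the widest and reaches furthest below it.

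*Klf15* (chr6:90462576-90475238, plus strand) had 2264, 2495 and 2192 normalized counts with vehicle and 1720, 2248 and 2859 with Tributyrin. Tributyrin mouse 1 was lowest and mouse 3 highest of the 6, a 1.66-fold range within the group against 1.14-fold among the vehicle mice. The group means were 2317 ± 159 with vehicle and 2275 ± 570 with Tributyrin (SD, n = 3). The log2 fold change was -0.03 ± 0.15 (SE), with a fold interval of 0.78 to 1.23 (unadjusted p = 0.857, exact permutation p = 0.9). Its direction rested on single mice, since it was -0.22 without Tributyrin mouse 3 and 0.15 without Tributyrin mouse 1.

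Of 9 genes of amino acid breakdown and of the heart that are linked to KLF15, 7 were higher and 2 lower with Tributyrin. Their median log2 fold change was 0.11. Over all genes tested 49.6% were higher and 4.25% had an unadjusted p under 0.05. Of the 9 genes 1 had such a p. That was *Ppm1k*, the phosphatase that activates the branched-chain ketoacid dehydrogenase, with 3768, 3649 and 3313 normalized counts with vehicle and 4527, 4433 and 4151 with Tributyrin. It was higher in all 3 Tributyrin mice by a log2 fold change of 0.29 ± 0.075 (SE), without passing the adjustment (edgeR's unadjusted p = 0.00296, adjusted p = 0.999). By DESeq2 here the log2 fold change was 0.289, with an unadjusted p of 0.000713 and an adjusted p of 0.334. The study, with DESeq2, reports *Ppm1k* as significantly increased by Tributyrin after adjustment, and more of the protein it encodes. The cause of this difference in the adjusted result was not tested. The order of *Ppm1k* over the Tributyrin mice, highest in mouse 1, was not that of *Klf15*, lowest in mouse 1. A relation between *Ppm1k* and *Klf15* was not tested. *Kcnip2*, a potassium channel subunit of the ventricle, was at -0.17 ± 0.09 (SE, unadjusted p = 0.0769, adjusted p = 0.999 by edgeR).

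Of 12 amino acid transporters 6 were higher and 6 lower, and 1 had an unadjusted p under 0.05. This was the carrier of arginine and lysine, *Slc7a1*, which had 1186, 1153 and 1210 normalized counts with vehicle and 1597, 1912 and 1144 with Tributyrin, so that Tributyrin mice 1 and 2 were high and mouse 3 was below every vehicle mouse. Its log2 fold change was 0.39 ± 0.15 (SE, edgeR's unadjusted p = 0.0248, adjusted p = 0.999). Without the filter on low counts it was 0.399 ± 0.094 (SE), with an adjusted p by edgeR of 0.0059. In that setting 167 of all 25581 genes tested passed an FDR of 10%, against 0 of 14133 as reported. Without Tributyrin mouse 2 the log2 fold change of *Slc7a1* was 0.21, with an unadjusted p of 0.121 by edgeR. The leucine carrier *Slc43a2* was lower in every Tributyrin mouse, at -0.14 ± 0.08 (SE, unadjusted p = 0.13, adjusted p = 0.999 by edgeR).

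Genes that ATF4 induces when amino acids run short were 10 in number, 4 higher and 6 lower, with no unadjusted p under 0.05. *Atf4* itself was at 0.15 ± 0.09 (SE, edgeR's unadjusted p = 0.105, adjusted p = 0.999) and *Phgdh*, of serine synthesis, at -0.46 ± 0.36 (SE, unadjusted p = 0.236, adjusted p = 0.999 by edgeR) from at most 21.7 normalized counts. Of 10 lysosomal target genes of TFEB, a factor that mTORC1 keeps out of the nucleus, 8 were higher and 2 lower, with a median log2 fold change of 0.06 and no unadjusted p under 0.05. *Atp6v0d1*, a subunit of the proton pump, was higher in every Tributyrin mouse by a log2 fold change of 0.08 ± 0.07 (SE), and *Ctsd*, a lysosomal protease, was at 0.08 ± 0.09 (SE). Over all 11 lists 111 genes were tested and 60 were higher, with a median log2 fold change of 0.01. Of the 111 genes 3 or 2.7% had an unadjusted p under 0.05, beside 4.25% of all genes tested. The 3 include *Ppm1k*, which was listed with its result in the study known. Groups were apart for 9 or 8.11%, beside 8.92% of all genes tested, and 0 passed an FDR of 10%.

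**Figure D4:**
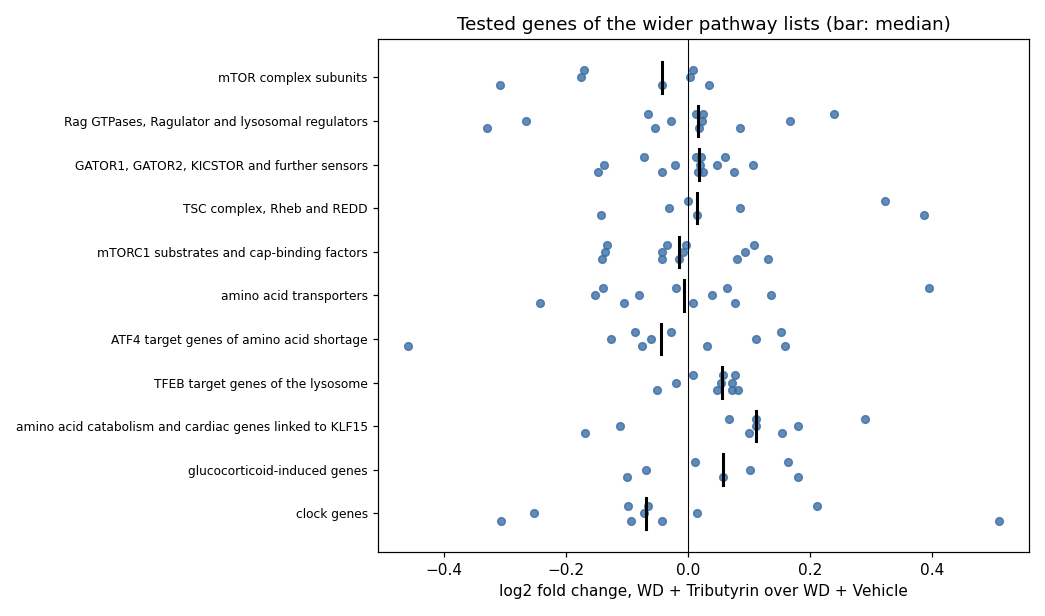
Log2 fold change of WD + Tributyrin over WD + Vehicle (horizontal axis) for the 111 tested genes of 11 lists around the pathway, 1 line per list, with 1 point per gene and a bar at the median. The medians lie between -0.07 for the clock genes and 0.11 for the genes linked to KLF15.

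The coefficient of variation was larger with Tributyrin than with vehicle for 9 of the 10 genes, *Sesn2* being the exception, and this was so for 61.6% of all genes tested. The median over the 10 genes was 6.9% with vehicle and 14.2% with Tributyrin, beside 8.29% and 10.8% over all genes tested. *Klf15*, *Castor1* and *Sesn1* ranged 1.66-fold, 1.64-fold and 1.59-fold among the Tributyrin mice, each with mouse 1 lowest, mouse 2 between and mouse 3 highest. *Mtor*, *Rptor*, *Rictor*, *Deptor*, *Sesn2* and *Rragd* had their highest Tributyrin value in mouse 2. With 3 mice a group, the difference in spread was not tested.

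**Figure D5:**
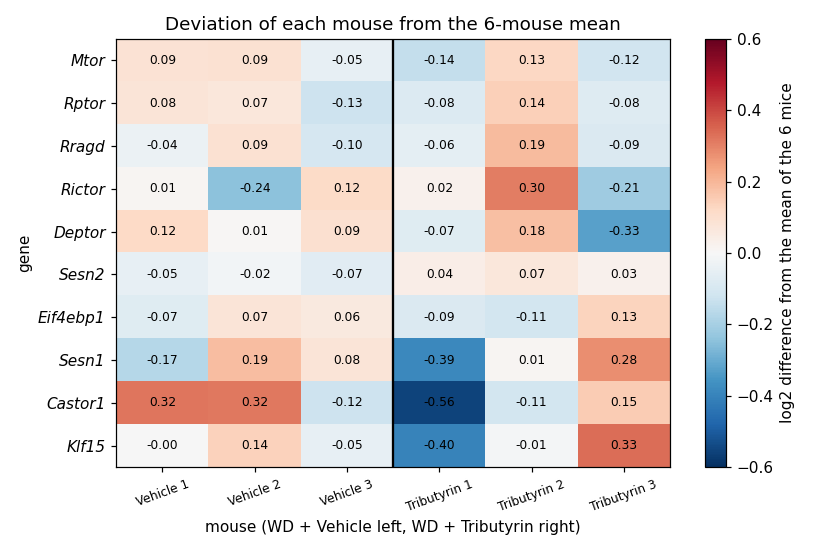
Difference of each mouse (columns) from the mean of the 6 mice on the log2 scale, for the 10 genes (rows), with red for above and blue for below. The rows of *Sesn1*, *Castor1* and *Klf15* turn from -0.39, -0.56 and -0.40 in Tributyrin mouse 1 to 0.28, 0.15 and 0.33 in Tributyrin mouse 3.

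Over the 6 libraries the 10 genes form 45 pairs, and no correlation passed the adjustment over the pairs (smallest Benjamini-Hochberg adjusted permutation p = 0.281). *Sesn1* and *Klf15* had the highest Pearson's r, 0.916 (permutation p = 0.0125, adjusted p = 0.281), with Spearman's rho of 0.771 (permutation p = 0.103, adjusted p = 0.579). After leaving out the 2 libraries farthest from the median of *Sesn1*, r was 0.552, so this relation rested on those mice. *Mtor* and *Rptor* had r of 0.904 (permutation p = 0.0681, adjusted p = 0.476) and rho of 0.771 (permutation p = 0.103, adjusted p = 0.579), and r was 0.994 without the 2 libraries farthest for *Mtor*. *Rptor* and *Rragd* had r of 0.873 (permutation p = 0.00833, adjusted p = 0.281) and rho of 0.886 (permutation p = 0.0333, adjusted p = 0.579), and r was 0.701 without 2 libraries. *Castor1* and *Klf15* had r of 0.795 (permutation p = 0.0708, adjusted p = 0.476). For *Sesn1* and *Castor1* r was 0.613 (permutation p = 0.208, adjusted p = 0.765), and -0.15 without the 2 libraries farthest for *Sesn1*. Among the vehicle mice alone that pair had r of -0.224. Within groups, as deviations from each group's mean, r was 0.915 for *Sesn1* and *Klf15* and 0.971 for *Mtor* and *Rptor*.

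Among 10262 genes with a mean of at least 100 normalized counts, the profile over the 6 libraries most like that of each gene was sought by Pearson's r on the log2 scale. For *Klf15* these were *Ist1* (0.9995), *Tead2* (0.9887) and *Lsp1* (0.9866), for *Sesn1* *Timp4* (0.9955), *Lrrc10* (0.9954) and *Tgm2* (0.9913), and for *Mtor* *Cybb* (0.9883), *Cplane1* (0.9856) and *B4galt2* (0.9792). The closest profile was *Plpp3* for *Rptor* (0.9743), *Pom121* for *Rictor* (0.9859), *Sned1* for *Deptor* (0.9923), *Nipsnap3b* for *Sesn2* (0.9825), *Tmed3* for *Castor1* (0.9862), *Zfp106* for *Rragd* (0.9899) and *Slfn2* for *Eif4ebp1* (0.9931). With 6 libraries and this many genes searched, high values are easily found, as between 9 and 85 genes had an r over 0.95 with each of the 10. *Tef*, a clock-controlled factor, came second for *Eif4ebp1* (0.9879).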

How the data were processed

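Whole-number counts of reads per Ensembl gene were deposited by the authors without normalization for 6 heart ventricle libraries made with a stranded kit. The submitters' processing notes name cutadapt 1.13, STAR, HTSeq 0.6.1p1, DESeq2 1.14.1 and mm10. Neither the strand option of HTSeq nor the annotation release is stated (not given in the sources used here). Lines without a gene identifier numbered 0. Of 54232 identifiers 54165 matched GENCODE M21 (GRCm38), which gave names, positions and exon lengths, and promoter windows came from RefSeq (GRCm38.p6). Exons of *Rptor* and *Deptor* overlap antisense genes with at most 5 counts.

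Groups were compared with edgeR 4.0.16 (R 4.3.3) by the quasi-likelihood test with TMM scaling, no covariate, genes kept by filterByExpr (count minimum 10, total minimum 15) and p-values adjusted by Benjamini-Hochberg over all 14133 genes tested, at an FDR of 10% as in the study. Normalized counts are counts divided by DESeq2 1.42.0 size factors. For single values an exact permutation test, two-sided, was used. The p-values set the difference between groups against the variation between mice, with 3 mice a group. For that variation edgeR also draws on all genes tested. Correlations used log2 of normalized counts plus 1. Tables were made with Python 3.11.15, numpy 2.4.6, pandas 2.3.3 and scipy 1.17.1 and drawn with matplotlib 3.10.9, and the edgeR step was tested on simulated data. The libraries differed by more than sampling noise (chi-square per degree of freedom 7.4 to 31.8 over pairs). Depth ran from 20369746 to 32734485 counts, and counting error gave a relative SD of up to 10.5% for *Sesn2* and 10.3% for *Castor1*.

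The genes named are the 10 genes, up to 2 genes per list with the lowest unadjusted p, paralogs of the 10, and the genes with the most similar profiles. Genes named outside this rule are the cell type markers and those said to be chosen after their values were seen. The genes and lists were chosen with earlier results of these data known. Alternatives were RLE scaling, library size alone, nuclear genes only, no filter, a mean CPM of at least 5, DESeq2, limma-voom (limma 3.58.1), a block for the replicate number, and each mouse left out in turn. Correlations on library size alone and within groups were added after the data were seen. No set test was run, and protein measurements were not analysed here.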

Additional observations from a re-analysis of the deposited data

How the results depend on the processing

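Over 14 alternative settings the lowest adjusted p of any of the 10 genes was 0.487, and 0 of them passed an FDR of 10% in each setting. Over all genes the number past 10% was 0 as reported, 11 by DESeq2, 167 without the filter on low counts, 2 with the replicate block, and 0 to 3 with 1 mouse left out. The mouse numbers were not shown to pair the samples, since the correlations of deviations between mice of the same number were 0.214, 0.037 and 0.015, and the replicate block left 0 of the 10 genes with an unadjusted p under 0.05. That number was 0 as reported, 1 without the filter (*Castor1*), and 0 to 2 with 1 mouse left out. Without the filter 1178 of all 25581 genes tested had such a p. The 2 were *Mtor* and *Deptor* without Tributyrin mouse 2, where 1360 of all 14225 genes tested had such a p. *Castor1* alone had one without Tributyrin mouse 3 and without vehicle mouse 3. There 663 of all 14521 and 389 of all 14496 genes tested did. The number with groups apart was 1 as reported, 0 under library size alone, and 1 to 3 with 1 mouse left out. Groups come apart more easily with fewer mice, and the share of all genes with groups apart was not counted in these settings. *Mtor*, *Deptor*, *Sesn2* and *Castor1* kept their direction in every setting that gave a value, and *Sesn2* was not tested at a mean CPM of at least 5. Under library size alone the median log2 fold change of all genes moved to -0.07 and that of the 10 genes to -0.11, 2 of the 10 were higher, and the signs turned for *Rragd* (-0.035), *Rraga* (-0.054), *Rragc* (-0.047) and *Sesn3* (-0.022). With 1 mouse left out, log2 fold changes changed sign for *Rptor* (-0.091 to 0.035), *Rictor* (-0.053 to 0.214), *Sesn1* (-0.206 to 0.12), *Rragd* (-0.061 to 0.091), *Eif4ebp1* (-0.116 to 0.003), *Klf15* (-0.219 to 0.145), *Eif4ebp2* (-0.119 to 0.028), *Per1* (-0.166 to 0.015), *Rraga* (-0.006 to 0.063) and *Sesn3* (-0.014 to 0.142). The differences in log2 ratio did so for *Rptor* to *Rictor* (-0.232 to 0.046), *Sesn1* to *Sesn2* (-0.316 to 0.024) and *Deptor* to *Mtor* (-0.118 to 0.032). The cause of these changes was not tested. With 3 mice a group the 95% interval of the fold ran from 0.854 to 1.11 for *Eif4ebp1*, the narrowest of the 10, and from 0.581 to 1.07 for *Castor1*, the widest. Folds inside an interval were compatible with the data at that level, and an interval is not a limit of detection.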

Other observations

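*Klf15* is known to be induced by glucocorticoids and to cycle with the day, and genes of both kinds varied among mice of the same group. Of 7 glucocorticoid-induced genes 5 were higher and 2 lower with Tributyrin, none with an unadjusted p under 0.05. *Sgk1*, a kinase, was at a log2 fold change of 0.10 ± 0.10 (SE) and *Per1* at -0.07 ± 0.11 (SE). *Fkbp5*, a chaperone of the glucocorticoid receptor that was chosen after its values were seen, had 939.6, 1851 and 1344 normalized counts in the vehicle mice and 572.3, 1372 and 2721 in the Tributyrin mice. Among the Tributyrin mice, mouse 1 was lowest and mouse 3 highest, as for *Klf15*, *Sesn1* and *Castor1*. *Sgk1* and *Per1* did not follow this order and were highest in mouse 1. In Tributyrin mice 1, 2 and 3 *Sgk1* had 1977, 1668 and 1909 normalized counts and *Per1* 2131, 1764 and 1787. The rest of the list rose from mouse 1 to mouse 3, as *Fkbp5* did. *Zbtb16*, likewise chosen after its values were seen, had 637.2, 3069 and 4635 with vehicle and 451.7, 3216 and 4116 with Tributyrin, so that mouse 1 was lowest in each group.

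Of 10 clock genes 3 were higher and 7 lower, none with an unadjusted p under 0.05. *Arntl*, which encodes the clock activator BMAL1, had 182.9, 140.4 and 89.5 normalized counts with vehicle and 273.1, 226.6 and 86.0 with Tributyrin (log2 fold change 0.51 ± 0.36, SE), and the log2 fold change ran from 0.20 without Tributyrin mouse 1 to 0.85 without Tributyrin mouse 3. The mouse with the most *Arntl* was Tributyrin mouse 1, which had the least *Klf15*, and the mouse with the least *Arntl* was Tributyrin mouse 3, which had the most *Klf15*. The vehicle mice did not show this opposition, as vehicle mouse 3 had the least of both among them, 89.5 for *Arntl* and 2192 for *Klf15*. A relation between *Arntl* and *Klf15* was not tested. *Per3* had 619.5, 583.1 and 900.7 normalized counts with vehicle and 558.3, 520.8 and 614.9 with Tributyrin, a log2 fold change of -0.31 ± 0.15 (SE, edgeR's unadjusted p = 0.0708, adjusted p = 0.999). Vehicle mouse 3 carried this difference, which was -0.09 without it (unadjusted p = 0.435 by edgeR). The hour at which each heart was taken is not given in the sources used here, and whether it differed between mice was not tested.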
